A study of Mus musculus with 4 samples.

Results

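The Hippo core is a small set of genes that relays one growth-restraining signal, and 10 of them are described here: the kinase genes Lats1, Lats2, Stk3 and Stk4, the adaptor genes Sav1, Mob1a, Mob1b and Nf2, and the co-activator genes Yap1 and Wwtr1. They were taken by name from the deposited gene table, and each name matched 1 of its 29011 rows, giving 10 genes in all. In this pathway the MST kinases (products of Stk3 and Stk4), held by the scaffold SAV1, phosphorylate the LATS kinases and their MOB1 partners at membranes where NF2 recruits LATS. Active LATS phosphorylates YAP (product of Yap1) and TAZ (product of Wwtr1), which keeps these co-activators out of the nucleus and away from the DNA-binding TEAD factors. In the intestinal epithelium YAP and TAZ are known for their part in regeneration and in the control of progenitor cells.

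The data are RNA-seq of whole small intestine from mice at postnatal day 8, with 4 libraries in 2 groups. The Lats1/2 KO group held 2 libraries with the genotype label VilCre+; Lats1/2-/-. Villin-Cre is active in the intestinal epithelium, so the other cells of the organ would keep both genes. The Control group held 2 libraries, described in the design text as Lats1/2 f/f without Cre, although their genotype label reads VilCre-; Lats1/2-/-. The labels give no strain or sex and do not say whether each sample was its own animal, so the p-values speak only of how these samples scatter, which may be technical. No cell type was sorted, and in such bulk tissue fewer cells of a type and less RNA per cell cannot be told apart.

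Recovered depth was 30517967 and 32361940 reads in the Lats1/2 KO libraries, against 27811313 and 25135964 in the Control libraries. The Lats1/2 KO group had 5 of 10 epithelial markers past the test as higher and 0 as lower, and the summed normalized count of all 10 was 206530 and 208964 in Lats1/2 KO against 151987 and 142138 in Control libraries. The 5 were the keratin genes Krt8, Krt18, Krt19 and Krt20 and the claudin gene Cldn3, while Epcam (log2 change of -0.04), Cdh1 (0.13), Vil1 (0.06), Cldn7 (-0.06) and Cdx2 (-0.05) did not pass the test. Of 8 mesenchyme markers 0 were higher and 4 lower, with sums of 19838 and 18011 in Lats1/2 KO against 24646 and 22184 in Control libraries. Of 6 endothelial markers 1 was lower, of 4 tested immune markers 1 was lower in limma and 2 in limma-voom, edgeR and DESeq2 (1 was higher at an unadjusted p under 0.05), and of the 6 markers each of smooth muscle and of enteric nerve and glia 0 passed in limma, edgeR or DESeq2, with 1 nerve and glia marker lower at an unadjusted p under 0.05. No marker with a row was at 0 in any library. Over all tested genes 15.2% were higher and 12.3% lower in limma. The lower share was 50% for mesenchyme markers, but 16.7% for endothelial markers, near that of all genes. The fall was not particular to mesenchyme by the median log2 change, which was -0.32 for mesenchyme and -0.23 for endothelial markers. It was -0.36 for nerve and glia, -0.42 for tested immune and -0.11 for smooth muscle markers, against 0.22 for epithelial markers. The epithelial sum did not move evenly. Krt8 had 37949 and 40933 normalized counts in Lats1/2 KO against 15604 and 15576 in Control libraries. Epcam had 36931 and 35586 in Lats1/2 KO against 38236 and 36295 in Control libraries. The part of these shifts in cell markers in the results below was not tested.

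The kinases and their substrates can be shown at the level of the gene sequence. LATS kinases favour a serine that follows the pattern His-any-Arg-any-any, and the coding stretch of the best known such serine, whose phosphorylation lets 14-3-3 proteins hold the co-activator in the cytoplasm, is given for both co-activator genes, with the serine codon in capitals. The stretches were read from GRCm38 with GENCODE M21 transcripts, at chr9:8001645-8001668 on the minus strand for Yap1 and chr3:57574984-57575007 on the minus strand for Wwtr1.
Yap1: cagcatgttcgagctcacTCCtct
Wwtr1: cagcacgtccgctcgcacTCGtcg
The 2 stretches were identical at 17 of 24 bases. The whole coding sequence of Yap1 (487 codons) held 5 matches to the pattern and that of Wwtr1 (451 codons in the transcript used) held 4, so each co-activator offers several such serines to the kinases whose genes were targeted. RNA levels do not report on their phosphorylation.

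The genes form 4 pairs of near relatives, and reads from one relative could be counted for the other where their sequences are alike. The longest run of coding sequence shared by Lats1 and Lats2 is shown because the reading of each targeted gene rests on telling the 2 apart. It was 22 bases long, at chr10:7705782-7705803 on the plus strand in Lats1 and chr14:57697155-57697176 on the minus strand in Lats2, in GRCm38.
Lats1 and Lats2: tgtactttgtgatggactacat
The longest shared run was 23 bases for Stk3 and Stk4, 20 bases for Mob1a and Mob1b, and 15 bases for Yap1 and Wwtr1. No run of 50 coding bases was shared within any of the 4 pairs. Only coding sequence was compared, and the length of 50 was not taken from the reads. Whether reads were counted for the wrong relative, there or in other exon bases, was not tested. Identity over aligned coding bases was 68.3% for Lats1 and Lats2, 76.9% for Stk3 and Stk4, 79.6% for Mob1a and Mob1b, and 70.2% for Yap1 and Wwtr1.

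Of the 10 genes, 1 passed the test: Lats1 was lower in Lats1/2 KO intestine, and the other 9 did not pass in either direction. The test was limma on log2(normalized count + 1), with Benjamini-Hochberg adjustment over 16415 genes and a threshold of 0.05. Of all tested genes 27.5% passed, 15.2% higher and 12.3% lower in Lats1/2 KO. The count of 1 in 10 members therefore lies below the share over all genes, and 0 of the 10 were higher in limma, limma-voom, edgeR or DESeq2, with 1 of them, Stk3, higher at an unadjusted p under 0.05. The median size of the log2 change was 0.04 for the 9 genes other than Lats1, against 0.28 over all tested genes. That comparison leaves out the 1 called member and was not matched for level. Lats2, the lowest of the 10 in mean normalized count, still lay above 43.4% of tested genes. The authors' deposited table, with its own adjusted p-values, called 23.0% of its 16637 genes with a value, and it too had 1 of the 10 members, Lats1, under 0.05.

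**Figure D1:**
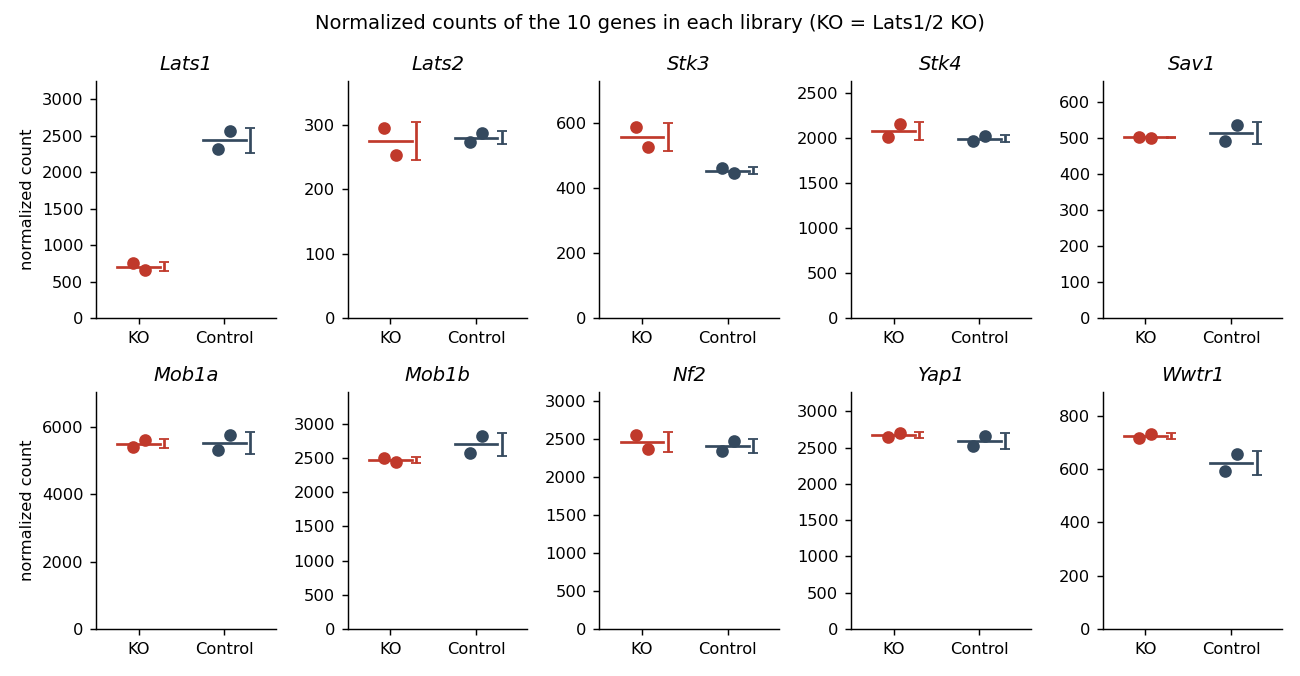
Normalized count (linear axis from 0, a separate scale for each gene) of the 10 genes in each library, with Lats1/2 KO left of Control. Points are libraries, lines are group means and bars are SD (n = 2 each). Lats1 stands at 751 and 661 in Lats1/2 KO against 2316 and 2560 in Control. The other 9 genes differ less between groups, with the largest difference, 1.22-fold by limma, for Stk3.

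LATS1 and LATS2 are the kinases that phosphorylate YAP and TAZ, and their genes are the ones the knockout targets. Lats1 (chr10:7681214-7716460, plus strand) had 751 and 661 normalized counts in the Lats1/2 KO libraries, against 2316 and 2560 in the Control libraries. Both Lats1/2 KO libraries were far below both Control libraries. The means were 706 ± 64.2 in Lats1/2 KO and 2438 ± 173 in Control (SD, n = 2 each), so the Lats1/2 KO mean count was 29.0% of that in Control. The log2 change was -1.79 ± 0.10 (SE), with a 95% interval from -2.03 to -1.55 and an adjusted p of 0.00055 by limma. This corresponds to a 3.45-fold lower level, on 812 and 731 reads in Lats1/2 KO against 2237 and 2240 reads in Control libraries. A change of this size or larger in either direction was found in 3.94% of tested genes, which placed Lats1 at rank 646 by size. The authors' deposited table gave a shrunken log2 fold change of -1.77 with an adjusted p of 1.47e-39. Counts were summed over the whole gene, and the sources used here do not say which part of Lats1 was deleted. How far the lower count reflects lost exon sequence or fewer transcripts was not tested. The same limit holds for the Lats1 levels per length, shares and ranks given below.

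Lats2 (chr14:57689662-57758388, minus strand) encodes the second LATS kinase and is also a known target of YAP and TAZ. It had 295 and 254 normalized counts in Lats1/2 KO libraries, against 273 and 287 in Control libraries. The Control libraries lay between the 2 Lats1/2 KO libraries. The log2 change was -0.03 ± 0.12 (SE; 95% interval from -0.34 to 0.28), with an adjusted p of 0.868 by limma, and the interval allows 0.789 to 1.21 times the Control level. A fall as large as that of Lats1 lay outside this interval. Counts were summed over the whole gene, and the sources used here do not say which part of Lats2 was deleted, so its level is no check of the genotype label. The gene also shares 2955 exon bases, 42.4% of its exon length, with Gm49361 on the same strand, a gene that was not analysed here. The sources used here do not say how reads in shared exons were counted, and whether any Lats2 reads were lost there was not tested.

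The pair as a whole was lower. Per exon length, in TPM (reads divided by exon length and scaled to the same total in each library), the sum of Lats1 and Lats2 was 15.5 and 12.8 in Lats1/2 KO libraries, against 34.9 and 38.9 in Control libraries. Lats1 made up 70.9% and 71.3% of that sum in Lats1/2 KO libraries and 89.0% and 89.5% in Control libraries. The log2 ratio of Lats1 to Lats2 was 1.34 and 1.38 in Lats1/2 KO libraries, against 3.08 and 3.15 in Control libraries, a difference of -1.76. The groups did not overlap, but with 2 libraries each an exact permutation test (two-sided) cannot go below p = 0.333, which is what it gave.

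**Figure D2:**
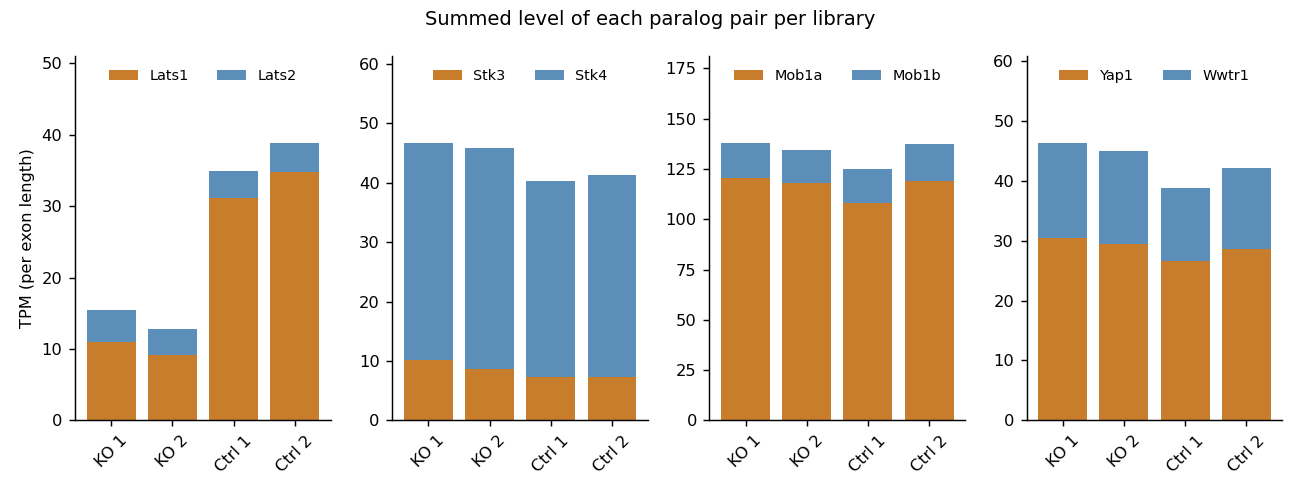
Level of each pair of related genes in each library, as stacked TPM per exon length (linear axis from 0), with the 2 Lats1/2 KO libraries left of the 2 Control libraries. The summed LATS pair reaches 15.5 and 12.8 TPM in Lats1/2 KO against 34.9 and 38.9 TPM in Control, with most of the gap in the Lats1 segment.

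The MST kinases stand above LATS, and neither of their genes passed the test. Stk3 (chr15:34875496-35178921, minus strand), which encodes MST2, had 587 and 525 normalized counts in Lats1/2 KO libraries, against 461 and 446 in Control libraries. The libraries of the 2 groups did not overlap, and both Lats1/2 KO libraries were the higher ones. The log2 change was 0.29 ± 0.10 (SE; 95% interval from 0.05 to 0.53), a 1.22-fold difference, with an unadjusted p of 0.026 and an adjusted p of 0.0774 by limma. Stk3 thus came closest to the threshold among the 9 uncalled genes, and in the authors' deposited table its adjusted p was 0.209. Stk4 (chr2:164070322-164155524, plus strand), which encodes MST1, had 2010 and 2153 normalized counts in Lats1/2 KO libraries against 1968 and 2020 in Control libraries. Its groups overlapped, with a log2 change of 0.06 ± 0.07 (SE; 95% interval from -0.11 to 0.23) and an adjusted p of 0.538 by limma. Stk3 made up 21.9% and 18.9% of the summed TPM of the pair in Lats1/2 KO libraries and 18.3% and 17.5% in Control libraries, so Stk4 supplied most of the MST transcripts in every library. Per length of the longest coding transcript the mean Stk3 share was 32.4% in Lats1/2 KO and 29.0% in Control, still the smaller part. The difference in the log2 ratio of Stk3 to Stk4 was 0.23, without overlap, at the smallest possible exact permutation p of 0.333. It was 0.10 without the first Lats1/2 KO library and 0.36 without the second.

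SAV1 is the scaffold that binds the MST kinases. Sav1 (chr12:69965012-69987002, minus strand) had 503 and 501 normalized counts in Lats1/2 KO libraries against 494 and 537 in Control libraries, with the Lats1/2 KO values inside the Control range. The log2 change was -0.04 ± 0.09 (SE; 95% interval from -0.26 to 0.19; adjusted p of 0.797 by limma). Sav1 shares 1336 exon bases, 25.4% of its exon length, with Atl1 on the opposite strand, and the sources used here do not give the strand setting of the counting. Atl1 itself had 65.7 and 65.1 normalized counts in Lats1/2 KO against 141 and 227 in Control libraries (log2 change of -1.44, adjusted p of 0.0134 by limma). If strand was not used, reads within the shared bases cannot be told apart by gene. Their part in the Sav1 count was not tested.

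MOB1A and MOB1B bind LATS and help to activate it. Mob1a (chr6:83326016-83343776, plus strand) had 5418 and 5607 normalized counts in Lats1/2 KO libraries against 5307 and 5754 in Control libraries, with overlap. Its log2 change was -0.0037 ± 0.07 (SE; 95% interval from -0.18 to 0.17; adjusted p of 0.974 by limma), the smallest in size of the 10. Mob1b (chr5:88720855-88764220, plus strand) had 2500 and 2444 normalized counts in Lats1/2 KO libraries against 2578 and 2821 in Control libraries. Both Lats1/2 KO libraries were below both Control libraries, but the log2 change of -0.13 ± 0.07 (SE; 95% interval from -0.30 to 0.05) did not pass, with an adjusted p of 0.243 by limma. Mob1a held 87.2% and 87.8% of the summed TPM of the pair in Lats1/2 KO libraries and 86.6% and 86.5% in Control libraries. The difference in log2 ratio was 0.12 (0.081 without the second Lats1/2 KO library), again without overlap and with an exact permutation p of 0.333.

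NF2, also called merlin, is the membrane protein that recruits LATS. Nf2 (chr11:4765845-4849536, minus strand) had 2555 and 2372 normalized counts in Lats1/2 KO libraries against 2348 and 2476 in Control libraries. The groups overlapped, with a log2 change of 0.03 ± 0.07 (SE; 95% interval from -0.15 to 0.21; adjusted p of 0.782 by limma).

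YAP and TAZ are the co-activators that the kinases restrain, mostly by phosphorylation of the protein. Yap1 (chr9:7931999-8004596, minus strand) had 2639 and 2700 normalized counts in Lats1/2 KO libraries against 2516 and 2665 in Control libraries. The groups overlapped, with a log2 change of 0.04 ± 0.06 (SE; 95% interval from -0.12 to 0.20; adjusted p of 0.652 by limma), which allows 0.922 to 1.15 times the Control level. Wwtr1 (chr3:57455649-57575910, minus strand), which encodes TAZ, had 717 and 732 normalized counts in Lats1/2 KO libraries against 593 and 656 in Control libraries. Both Lats1/2 KO libraries were above both Control libraries, with a log2 change of 0.22 ± 0.09 (SE; 95% interval from -0.003 to 0.43) that did not pass, at an unadjusted p of 0.0523 and an adjusted p of 0.125 by limma. The authors' deposited table gave Wwtr1 a shrunken log2 fold change of 0.15 with an adjusted p of 0.342. DESeq2 on whole reads without shrinkage gave 0.21, with an adjusted p of 0.346. Yap1 made up 65.5% and 65.6% of the summed TPM of the 2 genes in Lats1/2 KO libraries and 68.7% and 67.7% in Control libraries. The log2 ratio of Yap1 to Wwtr1 differed by -0.17 without overlap, at the same exact permutation p of 0.333. Over the 4 ratio tests the adjusted p was 0.333 for each as well.

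Across the 10 genes, the libraries of the 2 groups did not overlap for 4, with Stk3 and Wwtr1 higher and Lats1 and Mob1b lower in Lats1/2 KO, and they overlapped for 6. Over all tested genes the groups did not overlap for 68.3%. The 95% intervals of the 9 uncalled genes together spanned 0.789 to 1.45 times the Control level. The missed threshold does not show that the levels of these genes were the same in both groups. SE values ran from 0.06 to 0.12 and the reads per gene, summed over the 4 libraries, from 1115 for Lats2 to 22222 for Mob1a.

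**Figure D3:**
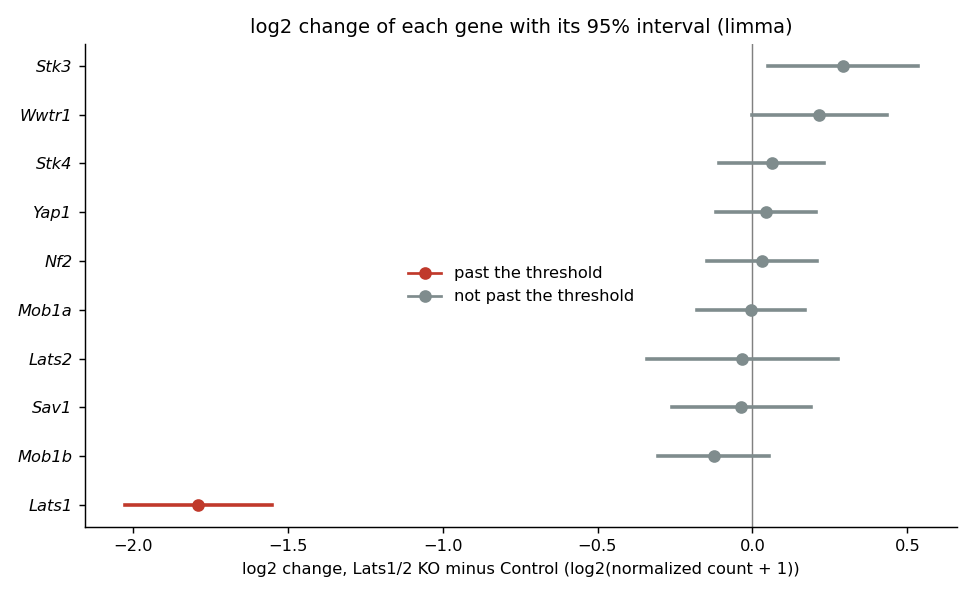
log2 change, Lats1/2 KO minus Control, of each of the 10 genes with its 95% interval from limma (points and bars). Lats1 stands alone at -1.79, and the other 9 lie from -0.13 for Mob1b to 0.29 for Stk3.

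The order of the 10 genes by level changed at Lats1. Per exon length, Mob1a was the highest of them, with 119 ± 1.5 TPM in Lats1/2 KO and 114 ± 7.54 TPM in Control intestine (SD, n = 2 each). Lats1 had 10.1 ± 1.28 TPM and was at rank 7 in Lats1/2 KO, against 32.9 ± 2.64 TPM and rank 4 in Control. Lats2 was the lowest of the 10 in both groups, with 4.10 ± 0.58 TPM in Lats1/2 KO and 3.96 ± 0.17 TPM in Control. In Lats1/2 KO intestine Lats1 lay within the spread of Sav1 (9.91 ± 0.39 TPM) and Stk3 (9.45 ± 1.09 TPM). There, Stk4 (36.9 ± 0.43 TPM) lay within the spread of Nf2 (37.5 ± 3.34 TPM). In Control intestine Nf2 (34.8 ± 1.63 TPM) and Stk4 (33.5 ± 0.93 TPM) lay within the spread of Lats1. These likenesses depend on the length used. Per length of the longest coding transcript, Lats1 in Lats1/2 KO intestine had 7.75 ± 0.96 TPM at rank 9, below Sav1 with 15.7 ± 0.56 TPM and Stk3 with 15.1 ± 1.68 TPM. By the same length, Lats1 in Control intestine had 25.8 ± 2.13 TPM at rank 5, below Nf2 with 39.0 ± 1.92 TPM and Stk4 with 29.0 ± 0.88 TPM. Lats2 stayed the lowest and Mob1a the highest of the 10 by both lengths. Whether Lats2 reads were lost in the exon bases shared with Gm49361 was not tested, and its rank and its share of the LATS pair carry that limit. The values that follow are again per exon length. Yap1 had 29.9 ± 0.62 TPM in Lats1/2 KO and 27.6 ± 1.38 TPM in Control. Mob1b, with 17.1 ± 0.90 TPM in Lats1/2 KO and 17.7 ± 1.29 TPM in Control, and Wwtr1, with 15.7 ± 0.35 TPM in Lats1/2 KO and 12.9 ± 1.04 TPM in Control, stood between them and the lowest genes. In Control intestine Sav1 had 9.65 ± 0.66 TPM and Stk3 had 7.30 ± 0.10 TPM.

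The genes whose 4 libraries ran most like those of Lats1 were found by the distance between their centred log2 values, among genes at or above the median level. Unnamed gene models were left out of this search. The nearest were Cyp4f16 (distance 0.159), Fhdc1 (0.162) and Itpr1 (0.176), the last encoding a calcium channel of the endoplasmic reticulum. Cyp4f16 had 4540 and 3855 normalized counts in Lats1/2 KO libraries against 12307 and 13686 in Control libraries. Fhdc1 had 327 and 273 normalized counts in Lats1/2 KO against 899 and 1154 in Control libraries, and Itpr1 had 713 and 603 in Lats1/2 KO against 2491 and 2518 in Control libraries. Their likeness rests on 4 libraries and a single contrast, which many genes share.

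Beyond the core, 59 other genes of the pathway were listed by role, and 56 were tested. Of these, 17 were higher, 3 lower and 36 did not pass, with a median log2 change of 0.13, against -0.0015 over all tested genes. The higher ones made up 30.4% and the lower ones 5.36%, against 15.2% and 12.3% over all genes. The list was chosen with earlier results of these data known, so these shares are a description and no independent test. Of 12 upstream kinases that act beside MST on LATS or are near kin of LATS, 0 were higher and 1 lower in limma, edgeR and DESeq2 alike, with 3 higher and 2 lower at an unadjusted p under 0.05. The one was Tnik, of the MAP4K-related kinases, with 1283 and 1298 normalized counts in Lats1/2 KO against 2172 and 2883 in Control libraries (log2 change of -0.95, adjusted p of 0.00715 by limma).

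Among upstream scaffolds and membrane proteins, 9 of 17 tested genes were higher and 2 lower. Wwc2, of the KIBRA family that activates LATS, had 5118 and 5449 normalized counts in Lats1/2 KO libraries against 1156 and 1241 in Control libraries, and its log2 change was 2.14 ± 0.07 (SE; adjusted p of 0.00017 by limma). Rassf5, of a family that binds MST kinases, had 117 and 137 in Lats1/2 KO against 592 and 655 in Control libraries (log2 change of -2.29, adjusted p of 0.00067 by limma). Rassf3 was lower by less, with 2125 and 2078 in Lats1/2 KO against 2458 and 2462 in Control libraries (log2 change of -0.23, adjusted p of 0.0427 by limma). Sav1 and Nf2, which act at the same tier, were not called.

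Of the 3 LIM proteins known to bind and inhibit LATS, 2 were higher. Ajuba had 4149 and 4209 normalized counts in Lats1/2 KO libraries against 1411 and 1564 in Control libraries (log2 change of 1.49 ± 0.07 SE, adjusted p of 0.00047 by limma), and Wtip was the other (log2 change of 1.02, adjusted p of 0.0217 by limma). Limd1 had a log2 change of -0.03 and did not pass. Of 12 genes of the STRIPAK phosphatase complex, which removes phosphate from MST, 3 were higher and 0 lower (25% called, near the 27.5% over all genes). Of 6 genes listed under protein degradation in the pathway, whatever their substrate, 0 passed the test in limma, edgeR or DESeq2. Among them, Itch was higher at an unadjusted p under 0.05 by limma. Of 6 tested TEAD and VGLL genes, 3 were higher, among them Vgll3, which encodes a cofactor that binds TEAD, with 274 and 258 normalized counts in Lats1/2 KO against 43.5 and 41.1 in Control libraries (log2 change of 2.62, adjusted p of 0.0007 by limma).

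**Figure D4:**
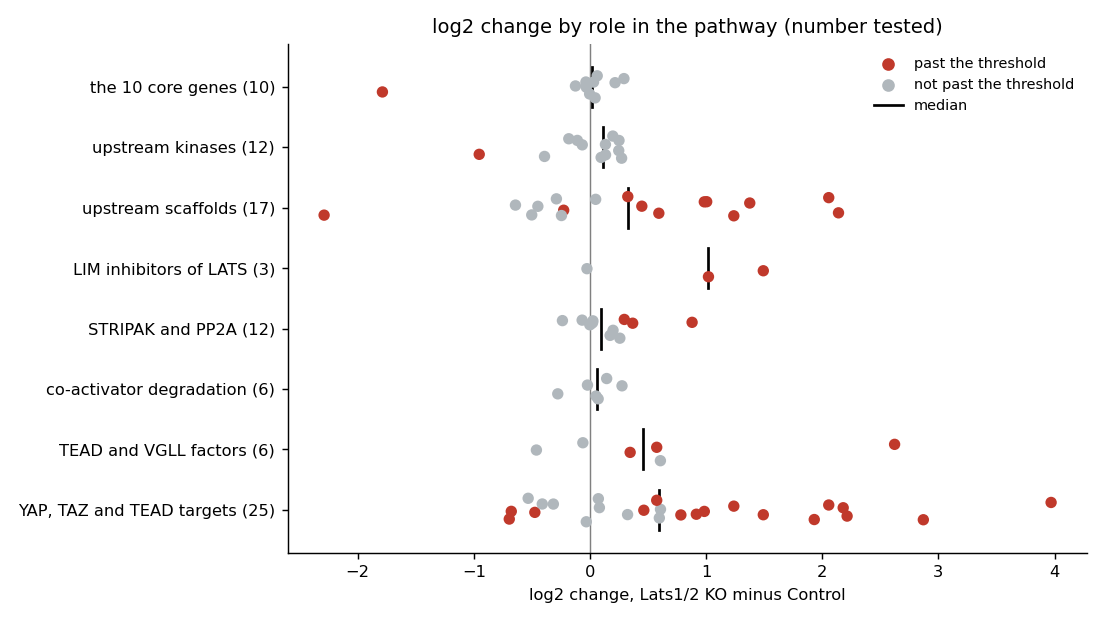
log2 change, Lats1/2 KO minus Control, of the 10 core genes and of other pathway and target genes by role (points; the number tested is in each label), with the median of each role as a black line and genes past an adjusted p of 0.05 in red. Lats1 at -1.79 is the only red point among the core genes, against 9 higher and 2 lower among 17 upstream scaffolds and 13 higher and 3 lower among 25 targets. The row labelled co-activator degradation holds all genes listed under degradation, whatever their substrate.

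The targets of YAP, TAZ and TEAD are the readout that stands below the core. Of 26 listed, 25 were tested, and 13 were higher, 3 lower and 9 not called. The higher ones made up 52.0% of those tested, against 15.2% over all genes, and the lower ones 12.0%, which is near the 12.3% over all genes. The target list, too, was chosen with earlier results of these data known, so its shares are a description and no independent test. Their median log2 change was 0.60. The gene Cyr61, which encodes a matrix protein and is a standard reporter of YAP activity, had 1477 and 1689 normalized counts in Lats1/2 KO libraries against 213 and 217 in Control libraries (log2 change of 2.87 ± 0.10 SE, adjusted p of 0.00017 by limma). Myof, which encodes the membrane protein myoferlin, had 1921 and 1881 in Lats1/2 KO against 523 and 474 in Control libraries (log2 change of 1.93, adjusted p of 0.00027 by limma), and Ajuba, which is in both lists, was the third of those named. The 3 lower ones were Axl (log2 change of -0.68), the stress-response gene Gadd45a (-0.70) and Igfbp3 (-0.48), which encodes a binding protein of insulin-like growth factors. Axl, a receptor tyrosine kinase gene, had 1078 and 1229 normalized counts in Lats1/2 KO libraries against 1864 and 1821 in Control libraries. Lats2, as a member of the target list, was among the 9 not called. The 5 genes in both lists (Ptpn14, Fjx1, Amotl2, Ajuba and Tead1) are counted in each. All 5 were called higher, so the higher shares of the 2 lists are not separate observations. The shifts in cell markers given above stand beside these counts, with their part not tested.

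The promoter of Lats2 is shown because the gene belongs to both the core and the target list. The window is RefSeq's, in GRCm38.p6, chr14:57746074-57746373 on the minus strand, from 250 bases before to 50 bases after one of its start sites. The capitals mark GGAATG, the core letters of the TEAD motif, which lies 4 bases after the start.
Lats2: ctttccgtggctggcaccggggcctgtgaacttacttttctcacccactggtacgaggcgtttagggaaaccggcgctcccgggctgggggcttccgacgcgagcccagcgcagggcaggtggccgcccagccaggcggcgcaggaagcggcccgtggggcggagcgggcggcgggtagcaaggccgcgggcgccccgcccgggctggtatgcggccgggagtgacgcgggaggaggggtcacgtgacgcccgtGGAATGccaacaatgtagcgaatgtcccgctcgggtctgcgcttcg
GGAATG, searched on both strands, was in 6 of the 12 windows found for 9 of the 10 genes, and in 14.7% of all 32851 windows of the same length. The 6 were both windows of Wwtr1, the windows of Mob1a, Yap1 and Sav1, and the Lats2 window shown. The other Lats2 window, chr14:57734369-57734668, held 0 matches. Wwtr1, Nf2 and Lats2 had 2 windows each, and those of Wwtr1 overlap. GC content ran from 34.3% to 78.3% in the 12 windows, against a median of 52.7% over all. The windows of Lats1, Stk4, Mob1b and Nf2 held no match in these letters. Among the genes with a match were Wwtr1, with a log2 change of 0.22, and Lats2, with -0.03, and none of the 5 passed the test.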

How the data were processed

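Total RNA of the whole small intestine was sequenced in 4 samples. Per the submitters' processing notes, STAR, featureCounts, DESeq2 and the build GRCm38 were used, and the sources used here give neither their versions nor the strand setting nor the handling of reads with several matches. The deposited values per library are a signal, namely read counts of each gene over a size factor of that library, as the authors' headers and the values show. Dividing by the smallest step of each library gave whole reads for 100% of values within 0.001. The same deposited table holds the authors' own shrunken log2 fold change, linear fold ratio and adjusted p-value. Column names gave the group but not the sample, so libraries were numbered within a group as names only.

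limma 3.58.1 (R 4.3.3), with a mean-variance trend, was fitted to log2(normalized count + 1) of the 16415 genes with at least 10 in at least 2 libraries, with Benjamini-Hochberg adjustment and a threshold of 0.05. The spread had 2 residual and 3.53 prior degrees of freedom. edgeR had been planned for raw counts and limma for normalized values, which is what the table held. The fit was tested on simulated data. TPM was computed from the whole reads and the exon length in GENCODE M21, which matched 28959 rows (99.8%). Alternatives were pseudocounts of 0.5 and 5, no filter, a filter of 50, library-size and TMM scaling, limma-voom, edgeR 4.0.16 and DESeq2 1.42.0 on whole reads, and each library left out. Members and lists were chosen with earlier results of these data known. Named genes were the 10 members, up to 3 higher and 3 lower genes of each list by smallest adjusted p, and the 3 genes most like Lats1. Unnamed gene models were skipped in the search for the last 3. Other genes named were chosen after their values were seen.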

Additional observations from a re-analysis of the deposited data

How the results depend on the processing

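Under 13 alternatives each, the 10 genes gave 130 values, and 0 calls were gained or lost. Lats1 stayed lower throughout, from -1.88 to -1.70 on the log2 scale, with adjusted p from 4.85e-40 to 0.0062. Stk3 stayed uncalled with adjusted p from 0.0676 to 0.322, and Wwtr1 from 0.0885 to 0.361. The sign of the change turned in 8 values, all of uncalled genes. With each library left out in turn, Lats2 ran from -0.14 to 0.076, Sav1 from -0.096 to 0.025, Mob1a from -0.062 to 0.055 and Nf2 from -0.023 to 0.084, and with TMM scaling Mob1a was at 0.00042. Their direction is not set by these data.

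Counts of calls depended on the libraries and the filter. With 1 library left out, genes called higher numbered 908 to 2171 and lower 864 to 1612, with the fewest when a Lats1/2 KO library was missing (1030 and 864 without the first, 908 and 961 without the second). Other pathway genes called higher numbered 7 to 17 (7 without the first and 8 without the second Lats1/2 KO library), and targets called lower 1 to 4 (1 without the second Lats1/2 KO library). Without a filter on low values 1318 genes were lower and 10 other pathway genes were higher. With 1 library in an arm, that library is assumed to vary like the others.

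Per length of the longest coding transcript, an alternative chosen after seeing the data, Lats1 made up 64.9% of the LATS pair in Lats1/2 KO and 86.2% in Control, Stk3 32.4% of its pair in Lats1/2 KO and 29.0% in Control, Yap1 80.6% of its pair in Lats1/2 KO and 82.4% in Control, and Yap1 took rank 2 of the 10. No paired analysis was possible because the numbers in the table's column names (WT1, WT5, MUT7, MUT8) differ between the groups and do not match the replicate numbers of the sample titles. Depth limits Lats2 most, with 1115 reads in all.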
